A study of Homo sapiens with 12 samples.

Results

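FoxK1 binding was examined at the transcription starts of 10 genes of autophagy and of the mTOR pathway (WIPI1, ULK1, MTOR, SQSTM1, MAP1LC3B, ATG5, ATG7, BECN1, TFEB and LAMP1) in HepG2, an established human liver cancer cell line. Members were chosen by gene name, with WIPI1 known to carry one of the strongest sites of these data, and their sites were selected on the presence of a called peak. A peak counted when its summit lay within 5 kb of the gene's start on build hg19. All 10 genes had such a peak in each of the 6 peak lists. Together they held 100 of the 223205 deposited peaks and 21 of the 68127 regions left after peaks sharing at least 1 bp were merged. The share of all gene starts with a peak within 5 kb was not computed, because no annotation on hg19 was used.

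Each list came from 1 FoxK1 chromatin immunoprecipitation library. All cells had spent 16 h in serum-free medium with albumin. The 3 insulin libraries came from cells that then received 100 nM insulin for 20 min, and the 3 untreated libraries from cells that did not. The series also has 6 input libraries, which were not analysed here. Nothing in the labels says that replicates were separate cultures, so p-values refer to variation among these libraries, which may be technical.

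Autophagy encloses cell contents in a double membrane and delivers them to the lysosome. The kinase mTOR holds it back when nutrients and insulin are plentiful, by phosphorylating the initiating kinase ULK1 and by keeping the lysosomal gene activator TFEB in the cytoplasm. FoxK1 is a forkhead transcription factor that has been described as a repressor of autophagy genes in fed cells and that responds to mTOR and insulin signalling. In the liver, autophagy supplies amino acids and lipids during fasting.

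The lists held between 26082 and 48208 peaks. Their median summit had 27, 38 and 21 fragments over a background of 3.75, 6.04 and 3.23 in insulin replicates 1, 2 and 3, and 43, 35 and 22 fragments over 8.49, 7.70 and 3.98 in untreated replicates 1, 2 and 3. Total reads are not part of a peak list, so the depth of the libraries is unknown. Fold here is the authors' enrichment of a summit over the background estimated there, so folds of separate lists are given side by side without a test, and tests of strength used ranks within a list. The median background was higher in each untreated list than in the insulin list of the same number. The replicate 3 lists had the fewest peaks in both treatments.

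Of the 21 member regions, 12 were called in all 6 lists (23.3% of all merged regions were), and 2 in a single list (34.3% of all merged regions). The member regions were chosen as called peaks near gene starts, and the shares near other gene starts were not computed. The shares are therefore given as a description. The 12 shared regions held 83 of the 100 peaks. The other 9 regions were weak, with folds between 2.45 and 7.10. At 8 of the 12 shared sites the median summit was within 350 bp of the gene's start, a limit that was not planned. The share over all shared regions was not computed, because no annotation on hg19 was used. The other 4 shared sites were one upstream of SQSTM1, one upstream of MAP1LC3B, and sites downstream of the starts of ULK1 and TFEB.

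**Figure D1:**
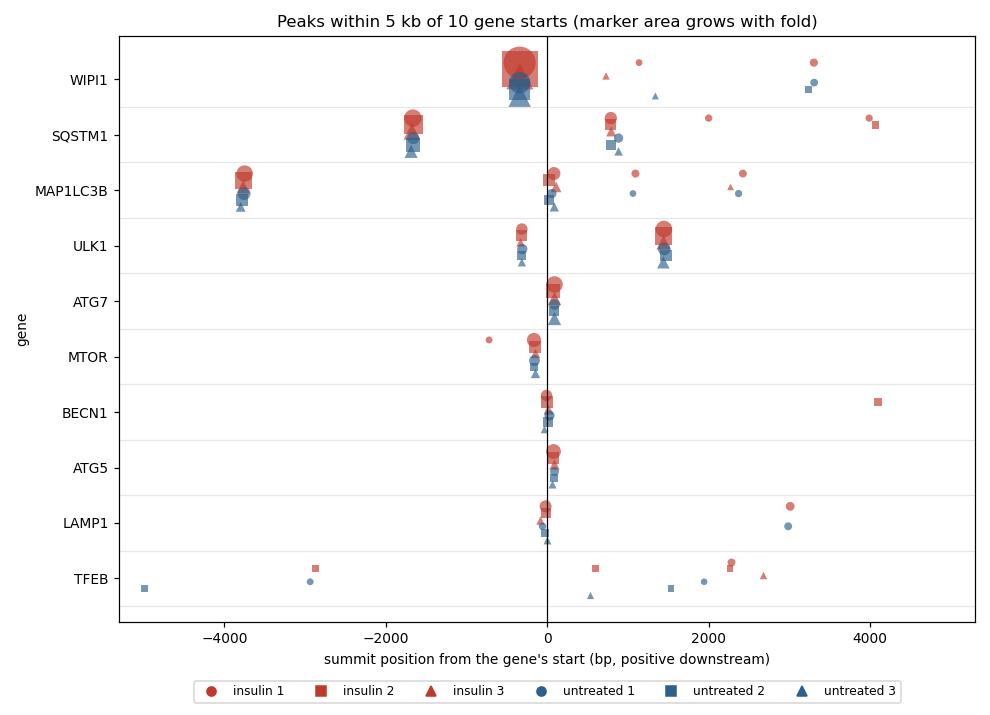
Summit positions of the 100 peaks, in bp from the start of each of the 10 genes (negative upstream), with 1 colour for each treatment, 1 marker shape for each replicate and marker area growing with fold. The WIPI1 markers stack 340 to 342 bp upstream and are the largest, while TFEB markers are small and scattered.

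WIPI1 encodes a protein that binds phosphatidylinositol 3-phosphate on the forming autophagosome. Its site on chromosome 17, 66452189 to 66454730, was by far the strongest of the group. The fold was 143, 174 and 99.3 in insulin replicates 1, 2 and 3, and 62.0, 57.9 and 70.3 in untreated replicates 1, 2 and 3. In every list this was between 2.56 and 3.67 times the fold of the next member. The next member was SQSTM1 in 4 lists, MAP1LC3B in untreated replicate 1 and ATG7 in untreated replicate 3. By −log10 q the peak ranked 1st or 2nd in each list.

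The height of the WIPI1 site was well counted. Its summit held 1345 fragments in insulin replicate 1 (exact Poisson 95% interval 1270 to 1420), 1922 in insulin replicate 2 (1840 to 2010) and 470 in insulin replicate 3 (428 to 514). It held 1610 (1530 to 1690), 1015 (954 to 1080) and 453 (412 to 497) in untreated replicates 1, 2 and 3. These intervals cover counting error only. Fragment numbers of the treatments overlapped, and both replicate 3 libraries were the lowest of their treatment. The background there was 8.39, 10.0 and 3.74 fragments after insulin and 25, 16.6 and 5.45 without it.

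The WIPI1 summit stood at the same base, 342 bp upstream of the gene's start, in 5 lists and 2 bp nearer the start in insulin replicate 3. Over the 15887 regions called in all 6 lists the median spread between the outermost summits was 94 bp, and 99.9% of those regions had a wider spread than 2 bp. Weak separate peaks of the same region lay downstream of the start in 3 lists, at 728 bp in insulin replicate 3, 1137 bp in insulin replicate 1 and 1339 bp in untreated replicate 3, with folds of at most 3.79. A second region about 3.3 kb inside the gene was called in insulin replicate 1 and untreated replicates 1 and 2, with folds of 5.60, 4.63 and 3.50.

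The RefSeq promoter of WIPI1 is printed because the strongest site lies beside it. It is given 5′ to 3′ from 250 bases before to 50 bases after the start on build GRCh38.p14 (chr17:68457447-68457746, minus strand). The files use hg19 and no conversion was made. If the RefSeq start is the one used for the distances, the summit lies upstream of the printed window. Capitals mark matches to GGGCGG (Sp1) or CCAAT (the NF-Y box) on either strand.
WIPI1: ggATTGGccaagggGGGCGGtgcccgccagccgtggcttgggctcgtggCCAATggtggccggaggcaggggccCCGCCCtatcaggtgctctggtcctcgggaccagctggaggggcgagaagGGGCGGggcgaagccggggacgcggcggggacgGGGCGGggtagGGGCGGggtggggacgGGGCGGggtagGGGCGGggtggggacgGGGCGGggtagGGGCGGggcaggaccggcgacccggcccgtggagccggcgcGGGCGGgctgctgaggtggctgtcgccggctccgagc

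The window held 10 matches to GGGCGG, in part in a short repeated unit, and 2 to CCAAT. Of all 35116 RefSeq promoters of this length 45.0% hold GGGCGG and 34.6% hold CCAAT. Bases G and C made up 79.7% of the window, the highest share among the 15 promoters listed for the 10 genes. No match to the forkhead letters GTAAACA was found in any of those 15 promoters, against 3.42% of all promoters. This says only that these letters are not in these windows.

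The 3 shared regions closest to WIPI1 in rank by fold over the 6 lists, measured as the mean difference in percentile, were chromosome 7, 106808095 to 106810684, chromosome 19, 41902683 to 41903963, and chromosome 19, 30334867 to 30336691. They differed from it by 0.0126, 0.0157 and 0.0189 percentile points. Their folds lay between 53.9 and 201.

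MTOR encodes the kinase of the mTOR complexes. Its site on chromosome 1, 11322038 to 11323670, had folds of 24.9, 19.4 and 8.61 in insulin replicates 1, 2 and 3 and of 12.8, 6.53 and 8.47 in untreated replicates 1, 2 and 3. The treatments overlapped, since insulin replicate 3 was below untreated replicate 1. Summit fragments were 169, 167 and 51 after insulin and 202, 88 and 62 without it. The summit stood 151 to 165 bp upstream of the start in all 6 lists, a spread of 14 bp, narrower than in 98.0% of shared regions. Insulin replicate 1 also had a weak peak 721 bp upstream with a fold of 2.88.

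The MTOR promoter (chr1:11262502-11262801, minus strand, GRCh38.p14) is printed because its summits fall inside the 250 bases before the start, if the RefSeq start matches. It was added after the values were seen. Capitals mark CCAAT and GGGCGG on either strand. CCAAT matches began 196, 75 and 34 bases before the start and GGGCGG matches began 122 bases before it and at base 31 after it.
MTOR: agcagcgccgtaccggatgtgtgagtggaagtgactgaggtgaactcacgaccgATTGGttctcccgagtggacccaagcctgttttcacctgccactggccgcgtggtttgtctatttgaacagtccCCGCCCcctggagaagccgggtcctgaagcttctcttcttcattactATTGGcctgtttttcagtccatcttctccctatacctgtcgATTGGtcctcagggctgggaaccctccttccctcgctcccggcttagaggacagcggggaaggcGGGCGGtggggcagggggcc

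ULK1, the kinase that starts autophagosome formation and that mTOR phosphorylates, had 2 shared sites. The stronger one lay inside the gene, 1438 to 1468 bp downstream of the start, on chromosome 12, 132380286 to 132381585. Its folds were 35.9, 40.5 and 25.6 after insulin and 18.7, 15.4 and 17.9 without it. Summit fragments overlapped, with 161, 281 and 97 after insulin and 264, 155 and 88 without it. The weaker site, 310 to 331 bp upstream on chromosome 12, 132378731 to 132379394, had folds of 14.8, 14.8 and 6.24 after insulin and of 11.1, 7.56 and 5.84 without it. So the promoter site of ULK1 was the lower of its 2 sites in each list. Summit fragments at the promoter site were 67, 87 and 25 after insulin and 106, 56 and 30 without it. In RefSeq, a start of LOC124903059 lies within 1 kb of that of ULK1 on the opposite strand.

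BECN1 encodes Beclin 1, a subunit of the lipid kinase complex that makes the phosphatidylinositol 3-phosphate bound by WIPI1. Its site on chromosome 17, 40975699 to 40976714, had summits from 43 bp upstream to 21 bp downstream of the start. Folds were 14.8, 16.6 and 10.4 after insulin and 10.6, 8.45 and 4.25 without it. Untreated replicate 3 was the lowest, at the 79.2 percentile of −log10 q of its list, whereas the other 5 lists stood between 95.2 and 97.1. Summit fragments were 140, 233 and 75 after insulin and 225, 129 and 54 without it, and overlapped.

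The conjugation genes were represented by ATG7, ATG5 and MAP1LC3B. ATG7, the activating enzyme of the conjugation pathway, had a site on chromosome 3, 11313778 to 11314779, with its summit 75 to 85 bp downstream of the start. Its folds were 35.2, 21.0 and 22.5 after insulin and 12.3, 10.8 and 21.4 without it. Untreated replicate 3 thus lay among the insulin values. Summit fragments were 273, 234 and 89 after insulin and 256, 154 and 97 without it. Within lists it stood between the 97.7 and 99.4 percentiles of −log10 q.

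ATG5, part of the complex that attaches lipid to the ATG8 proteins, had a site on chromosome 6, 106773103 to 106773974, 60 to 89 bp downstream of the start. Its folds were 27.4, 18.0 and 11.5 after insulin and 7.33, 6.0 and 5.33 without it, and the lowest insulin value was above the highest untreated one. Summit fragments were 185, 175 and 50 after insulin and 165, 93 and 52 without it, and they overlapped. The background at this summit was 5.78, 8.76 and 3.43 fragments after insulin and 21.7, 14.7 and 8.95 without it. It was lower in every insulin list than in any untreated one, which held for 1 of the 12 sites, ATG5, and for 5.98% of shared regions. Higher folds and a lower background thus occurred together at ATG5. Fragment numbers also depend on depth, which is unknown, and they overlapped at all 12 sites. What set the ATG5 folds apart was not tested.

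MAP1LC3B encodes LC3B, an ATG8 protein that is joined to lipid on the autophagosome membrane. It had a shared site at its start and a stronger one 3749 to 3798 bp upstream. The upstream site, on chromosome 16, 87421424 to 87422485, had folds of 34.9, 37.8 and 21.4 after insulin and of 20.0, 15.2 and 9.84 without it. The site at the start, on chromosome 16, 87425079 to 87426455, had folds of 20.4, 16.0 and 12.4 after insulin and of 8.28, 10.6 and 8.53 without it. Summit fragments overlapped between treatments at both, with 95 to 474 at the upstream site and 71 to 285 at the start. Summits at the start spread over 88 bp, from 21 to 109 bp downstream.

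In RefSeq, a start of FBXO31, a gene on the opposite strand, lies within 1 kb of that of MAP1LC3B. The promoter of MAP1LC3B (chr16:87392086-87392385, plus strand, GRCh38.p14) is shown for the third strongest gene of the group. Capitals mark GGGCGG and the NRF1 letters TGCGCATGC, which occur in 1.56% of all promoters and in this member alone.
MAP1LC3B: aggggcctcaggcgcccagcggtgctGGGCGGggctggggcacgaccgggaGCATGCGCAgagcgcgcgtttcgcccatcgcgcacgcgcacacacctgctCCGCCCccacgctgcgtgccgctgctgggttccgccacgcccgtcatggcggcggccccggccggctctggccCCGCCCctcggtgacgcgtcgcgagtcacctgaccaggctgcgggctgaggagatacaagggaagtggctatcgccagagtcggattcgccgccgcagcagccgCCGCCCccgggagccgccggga

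SQSTM1, the receptor p62 that carries ubiquitin-marked cargo to LC3, was the second strongest gene. Its main peak lay 1657 to 1687 bp upstream of the start used here, with folds of 39.5, 47.5 and 35.7 after insulin and of 17.3, 22.6 and 20.7 without it. Summit fragments were 226, 394 and 131 after insulin and 263, 219 and 130 without it. A second peak in every list lay 783 to 883 bp downstream, with folds of 17.9, 14.3 and 10.4 after insulin and of 8.45, 9.79 and 6.33 without it. Both peaks fall in a single merged region, on chromosome 5, 179245663 to 179249060. RefSeq lists 3 starts for SQSTM1, so no promoter is printed. Their windows begin at 179806143, 179806759 and 179820655 on GRCh38.p14, and which of them matches the start used here was not established. A start of MGAT4B, on the opposite strand, lies within 1 kb of at least 1 of the 3 SQSTM1 starts, but not of all. Weak peaks farther inside the gene were called after insulin, 1999 bp from the start in replicate 1 and at 3987 and 4066 bp in replicates 1 and 2. Their folds were between 3.51 and 4.54.

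LAMP1, a glycoprotein of the lysosomal membrane, had a site on chromosome 13, 113951120 to 113952026, with the summit 6 to 91 bp upstream of the start. Folds were 16.7, 12 and 6.48 after insulin and 3.94, 6.61 and 5.01 without it, and overlapped. Summit fragments were 109, 125 and 34 after insulin and 83, 70 and 34 without it. Its percentile of −log10 q ranged from 65.6 in untreated replicate 1 to 94.1 in insulin replicate 1. A weak peak 2984 to 3009 bp inside the gene was called in replicate 1 of both treatments.

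The LAMP1 promoter (chr13:113296989-113297288, plus strand, GRCh38.p14) is shown for one of the 2 weakest genes of the group. Capitals mark the E-box CACGTG, which TFEB is known to bind, its flanked form TCACGTGA, and the CGCG element TCTCGCGA. E-boxes began 192, 176, 159, 142, 28 and 1 base before the start, and the last 2 of them had the flanked form.
LAMP1: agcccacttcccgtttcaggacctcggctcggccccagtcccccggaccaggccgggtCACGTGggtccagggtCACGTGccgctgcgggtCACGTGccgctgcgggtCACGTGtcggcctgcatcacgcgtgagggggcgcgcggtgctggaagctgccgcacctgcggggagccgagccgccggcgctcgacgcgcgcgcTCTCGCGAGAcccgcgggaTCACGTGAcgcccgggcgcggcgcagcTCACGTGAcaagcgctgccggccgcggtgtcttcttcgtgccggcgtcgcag

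LAMP1 was the only one of the 10 genes whose listed promoters held CACGTG (7.26% of all promoters), TCACGTGA (0.980%) or TCTCGCGA (1.15%). The RefSeq start was not matched to the start used for the distances. Which of these letters lie under the 6 LAMP1 summits was therefore not established. The matches are letters in the reference, not measured sites.

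TFEB, the activator of lysosomal and autophagy genes, had no shared site with closely placed summits. RefSeq lists 3 starts for TFEB, and whether any of them lies under the peaks described here was not established. A broad merged region downstream of the start used here, on chromosome 6, 41701078 to 41703771, had a peak in each of the 6 lists. These peaks did not all share bases. The strongest lay at 41701944 to 41702432 in untreated replicate 1 and at 41703391 to 41703771 in untreated replicate 3. Folds of the strongest peaks were 4.98, 4.07 and 4.10 after insulin and 2.23, 2.15 and 3.34 without it. The strongest summits of the lists lay between 533 and 2671 bp downstream. That spread of 2138 bp was exceeded by 0.132% of shared regions. These summits held 14 to 46 fragments, and the part of such low numbers in the spread was not tested. Other weak regions lay upstream, one called in insulin replicate 2 and untreated replicate 1, and one reached by the window in untreated replicate 2 through a summit at 4990 bp. Over all its regions, the strongest TFEB peak of each list stood between the 16.2 and 46.0 percentiles of −log10 q.

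**Figure D2:**
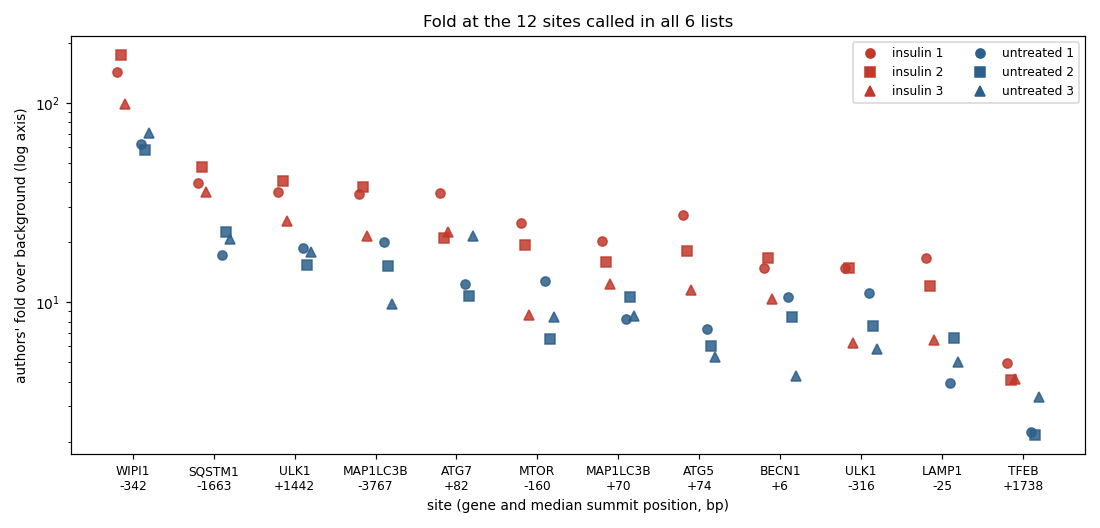
The authors' fold over background (log axis) at the 12 sites called in all 6 lists, 1 point for each library, ordered by mean fold and labelled by gene and median summit position in bp. WIPI1 stands at 57.9 to 174 and TFEB at 2.15 to 4.98, and at 7 sites every insulin point is above every untreated point.

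The study asked whether insulin changed FoxK1 binding. All 10 genes had a peak with and without insulin in 3 of 3 libraries, so no gene gained its only peak or lost all of them. The share of all gene starts with a peak in every library was not computed. The TFEB peaks of the lists did not all share bases. No member region was called in 3 of 3 insulin and 0 of 3 untreated libraries (0.376% of all merged regions were), and none showed the reverse (0.0352%). Without insulin replicate 3, the weak SQSTM1 region about 4 kb inside the gene was 1 such region, called in the other insulin libraries. With fewer libraries more regions can meet that rule, and the share of all merged regions meeting it then was not computed. The number of peaks near the 10 genes was 21, 17 and 15 in insulin replicates 1, 2 and 3 and 18, 15 and 14 in untreated replicates 1, 2 and 3. The means were 17.7 ± 3.06 (SD, n = 3) and 15.7 ± 2.08 (SD, n = 3), so the gap of 2.00 peaks was within the SD of the insulin libraries (exact permutation test, two-sided, p = 0.6; 3 against 3 cannot go below 0.1). The count was higher after insulin in 3 of 3 pairs of libraries with the same number (exact sign-flip test, two-sided, p = 0.25, its lower limit for 3 pairs). Leaving out insulin replicate 1 brought the gap to 0.333 and leaving out insulin replicate 3 to 3.33. Leaving out untreated replicate 1 gave 3.17, and leaving out untreated replicate 3 gave 1.17.

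Folds did not overlap between treatments, with insulin higher, at 7 of the 12 shared sites. These were WIPI1, the upstream SQSTM1 site, the site inside ULK1, both MAP1LC3B sites, ATG5 and TFEB (whose peaks did not all share bases). The same held for 34.2% of the 15887 shared regions. Summit fragments overlapped at all 12 sites, and did not overlap at 0.0441% of shared regions. In bulk chromatin, more cells with a bound site and more binding in each cell cannot be told apart.

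**Figure D3:**
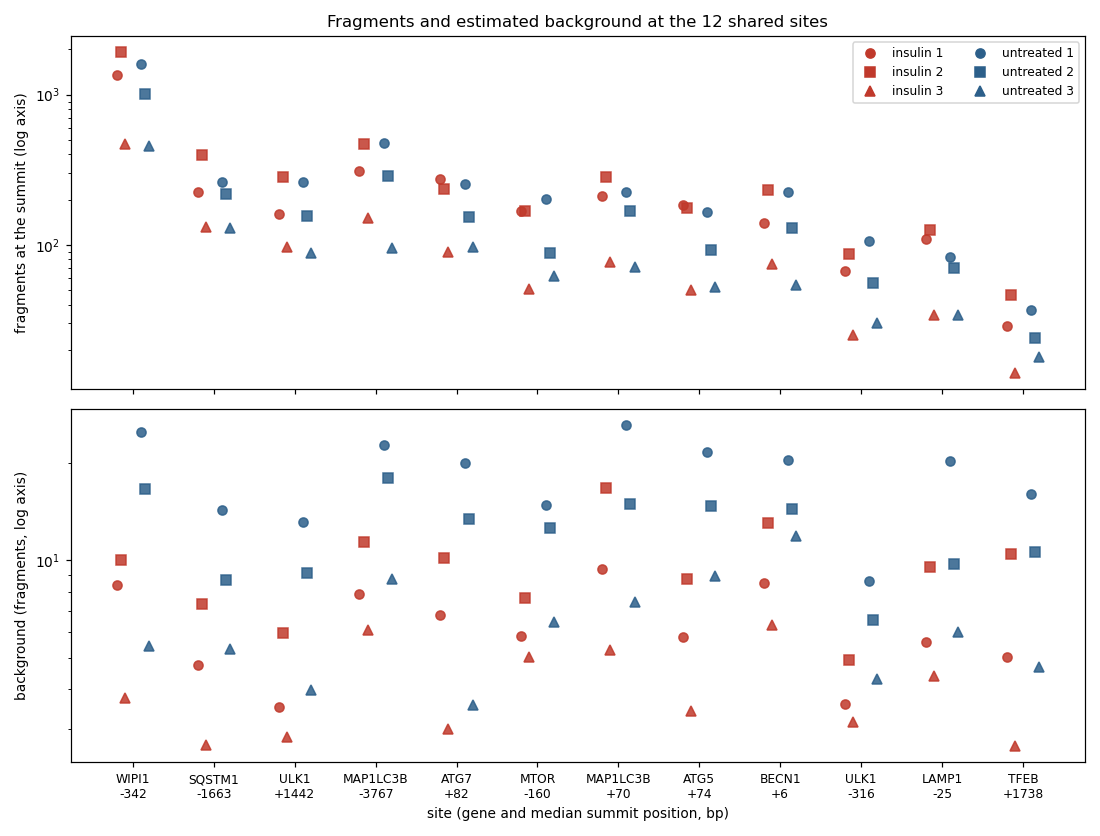
Fragments at the summit (upper panel) and the background estimated there (lower panel), both on log axes, at the 12 shared sites, 1 point for each library. At ATG5 the background of each insulin library (3.43 to 8.76) is below that of each untreated library (8.95 to 21.7), while fragments overlap.

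To compare sites across lists of unequal length, each of the 15887 shared regions was ranked by fold within its list. ATG5 was the member whose ranks separated by treatment. It ranked 853rd, 2198th and 1935th after insulin and 6611th, 5913th and 7561st without it. Ranks that did not overlap, with insulin higher, occurred at 1 of the 12 sites and at 4.09% of shared regions. The difference in normal score, the rank mapped to a standard normal scale, was 1.09 ± 0.323 (SE) with a 95% interval from 0.378 to 1.80. It did not pass the test (limma, Benjamini-Hochberg adjusted p = 1, unadjusted p = 0.00617). ATG5 was 1 of 12 sites with an unadjusted p under 0.05, against 3.05% of shared regions. By −log10 q the ATG5 difference was 0.553 with an interval from 0.00175 to 1.1, and its ranks did not overlap. With each library left out in turn, the difference by fold was 0.927 to 1.19 and the ranks did not overlap. None of these passed the test (limma, adjusted p at least 0.805). Ranking by summit fragments was a setting chosen after seeing the data. The ATG5 difference was then 0.179 with an interval from -0.308 to 0.666 (limma, adjusted p = 1), and its ranks overlapped.

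No shared region passed an adjusted p of 0.05 (limma, 0% of 15887, with 485 under an unadjusted 0.05), members included. The WIPI1 site ranked 3rd, 2nd and 2nd by fold after insulin and 6th, 6th and 2nd without it. Its difference was 0.184 with an interval from -0.505 to 0.872. By summit fragments it ranked 1st in all 6 lists, so ranks could not show a difference there. TFEB, near the bottom of the shared regions in every list, had a difference of 0.807 (-0.146 to 1.76), and LAMP1 one of 0.664 (-0.273 to 1.60). Single libraries moved both. The TFEB difference was 1.37 (0.531 to 2.20) without untreated replicate 3 and 0.0997 without replicate 3 in both treatments. The LAMP1 difference was 0.258 without untreated replicate 1 and 1.02 (0.0489 to 1.99) without untreated replicate 2. None of these passed the test (limma, adjusted p at least 0.805).

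The remaining 8 sites had differences between -0.175, at the ULK1 site upstream of the start, and 0.440, at BECN1. Over the 12 sites the median was 0.218 with 11 differences above 0, beside a median of 0.0155 and 51.9% above 0 over all shared regions. Ranked by −log10 q, 10 of the 12 differences were above 0 and the median was 0.0961. Over all shared regions 51.4% were above 0 in that setting, with a median of 0.0104. Ranked by summit fragments, 7 of the 12 were above 0, 4 were below it and WIPI1 was at 0, with a median of 0.0203. Over all shared regions 50.5% were above 0 in that setting, with a median of 0.00317.

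**Figure D4:**
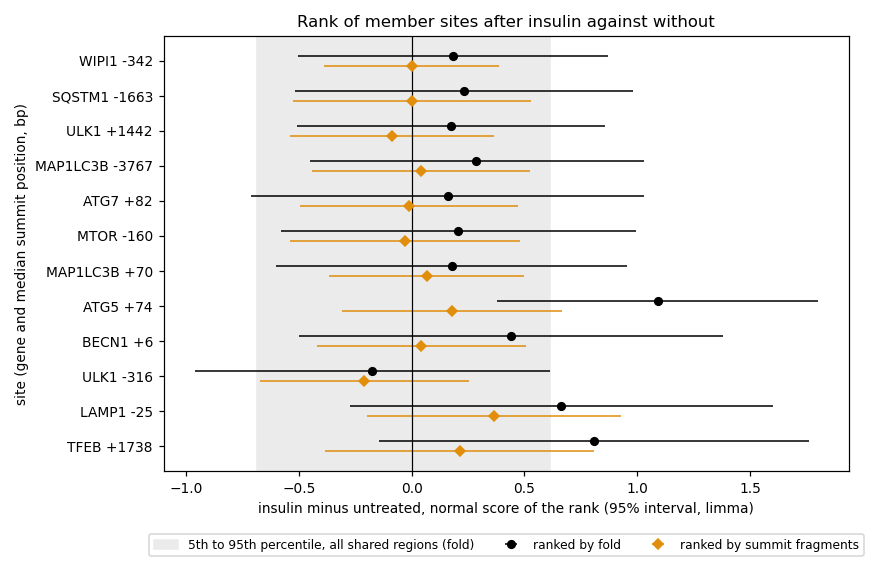
Insulin minus untreated difference in the normal score of the rank at the 12 shared sites, with 95% intervals from limma, for ranks by fold (black circles) and by summit fragments (orange diamonds, WIPI1 being fixed at 0 by ranking 1st in all 6 lists). The grey band spans the 5th to 95th percentile of all shared regions (-0.685 to 0.613), and ATG5 by fold is the point whose interval (0.378 to 1.80) leaves out 0.

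Summit positions did not separate by treatment at any of the 12 sites. They did at 1 site without insulin replicate 2, untreated replicate 1 or untreated replicate 3, each left out alone. Groups of fewer libraries separate more easily, and the share of all shared regions that separated was not computed for any setting. The site inside ULK1 had its summit at 1444, 1438 and 1441 bp after insulin and at 1449, 1468 and 1438 bp without it, a difference of -10.7 bp (two-sided exact permutation p = 0.4, adjusted p = 1). The upstream MAP1LC3B summit differed by 16.3 bp (exact p = 0.4, adjusted p = 1). The MTOR summit differed by 1.33 bp and the WIPI1 summit by 0.667 bp (exact p = 1 for both).

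The peaks just inside the 5 kb limit were weak. They were a SQSTM1 peak at 4066 bp (fold 4.54) and a BECN1 peak at 4095 bp (fold 3.69), both in insulin replicate 2, and the TFEB peak at 4990 bp upstream (fold 3.23). Just outside came SQSTM1 peaks at 5162 bp in untreated replicate 2 and 5164 bp in insulin replicate 3 (folds 4.98 and 4.45) and a WIPI1 peak at 5186 bp in insulin replicate 2 (fold 3.22).

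Of 52 further genes of the pathway, 40 matched a RefSeq promoter entry by symbol. Whether they carried FoxK1 peaks was not analysed here, because no annotation on hg19 was used. GTAAACA occurred in the promoters of CALCOCO2 and WDR45, 2 of the 40 genes. CACGTG occurred in 7 of them (ATG14, ATG3, CTSD, LAMTOR1, MCOLN1, RRAGC and TSC2), and the flanked form in ATG3, MCOLN1 and TSC2. The ETS letters CCGGAAG, present in 10.3% of all promoters, occurred in 4 of the 15 member promoters (of ATG5, ATG7, BECN1 and SQSTM1). They occurred in 12 of the 51 promoters of the 40 other genes. The cAMP response element TGACGTCA was in no member promoter and in 1.85% of all. GGGCGG occurred in 12 of the 15 member promoters, where the median share of G and C was 75.0%, against 58.7% over all promoters.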

How the data were processed

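Per the submitters' processing notes, fastp, Bowtie2, SAMtools and MACS2 were used on build hg19; their versions, their roles and any use of the inputs as control: not given in the sources used here. Peak names show that the authors called peaks on each library by itself. Each deposited list gives a fold (a linear ratio over background), −log10 p and −log10 q, which depend on depth, and a score within 1 of 10 times the −log10 p. Groups and replicate numbers came from sample titles.

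The members and gene lists were chosen with earlier results of these data known. Every member was named by its strongest peak within 5 kb; promoters were to be printed for the 3 strongest and 2 weakest genes, but SQSTM1 and TFEB have several RefSeq starts and were left out. Gene strand and promoters came from RefSeq on GRCh38.p14, in which all 10 members matched; exon and intron positions on hg19 were not used here. Motifs were exact matches on both strands; CACGTG lies within TCACGTGA.

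The number of fragments and the background at each summit were solved for, with −log10 p as a Poisson upper tail and fold as (fragments + 1) over (background + 1). For 100% of peaks a single whole number of fragments gave back the deposited −log10 p to 0.0005, or to that proportion of values above 10. Ranks were compared with limma 3.58.1 (R 4.3.3) over all 15887 shared regions with Benjamini-Hochberg adjustment, and counts and positions by exact permutation over 20 assignments. In simulated data for this comparison (15887 regions), 100 regions were shifted by 1 normal score and 100 by 2. Of those whose estimated difference had the right sign, the limma step recovered 13% and 79%. Over these regions, the deviations from the group mean of libraries with the same number correlated at 0.194, 0.261 and 0.433, so replicate numbers were taken as pairs for the alternative with a replicate block; insulin replicate 2 also correlated with untreated replicate 1 (0.231). Alternatives changed the window, the peak filter, list length, the ranked value, the region definition and the libraries used. Python 3.11.15, numpy 2.4.6, pandas 2.3.3, scipy 1.17.1 and matplotlib 3.10.9 were used.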

Additional observations from a re-analysis of the deposited data

How the results depend on the processing

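The count of member regions called in every library stayed within 1.5 times of 12 in all 12 alternatives (10 to 17), and no member region passed the rank test in any of 17 (lowest limma adjusted p 0.756 for ATG5, with the replicate block). With lists of equal length the difference in genes with a peak was 0.333, as TFEB lost its peak in 1 untreated list. Insulin-only member regions numbered 0 to 1 with each library left out and 1 without replicate 3 in both treatments. In each case the region was the weak SQSTM1 region about 4 kb downstream. The share of all merged regions called so in these settings was not computed. Sites whose summit positions did not overlap numbered 0 to 1 with each library left out. They numbered 1 with the mean of all summits in a region and 4 without replicate 3 in both treatments. Groups left with fewer libraries separate more easily, and the shares over all shared regions were not computed. The rank difference changed sign, with none passing the test, at the site inside ULK1 ranked by −log10 q or p (-0.0475) or by summit fragments (-0.0869), at MTOR (-0.0309) and ATG7 (-0.0118) by summit fragments, and at BECN1 without replicate 3 in both treatments (-0.0770). With each library left out it also changed sign at the upstream ULK1 site (range -0.344 to 0.0604; positive without insulin replicate 3), ATG7 (-0.0841 to 0.499) and the MAP1LC3B start (-0.0831 to 0.395; both negative without untreated replicate 1) and BECN1 (-0.0379 to 0.712; negative without untreated replicate 3). The cause of these changes was not tested. With the replicate block the difference in peaks near members was 2.00 (exact sign-flip test over n = 3 pairs, two-sided, p = 0.25, which is its lower limit), and pairing changed no call. The TFEB site gave no rank difference with −log10 q of at least 5, with equal list lengths, with regions built from summits within 100 bp, or without insulin replicate 2 or 3. The depth of the lists is unknown, so counting error is known at the summits alone.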
